A study of Mus musculus with 2 samples.

Results

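The Reg lectins and the resistin-like molecules are 2 families of small secreted proteins of the gut, and 10 of their genes in the mouse were followed here. The Reg family was represented by Reg1, Reg2, Reg3a, Reg3b, Reg3g and Reg4, and the resistin-like family by Retnlb, Retnla, Retnlg and Retn. Members were taken by name, as every probe set whose single gene symbol on the array platform was one of these 10. Of the 18193 genes named by the array, 9 were members, read by 10 probe sets. Reg3b had 2 probe sets and the other 8 genes had 1 each, while no probe set carried Retnlg as its single symbol, so that gene was not analysed here.

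RNA came from scrapings of the jejunum, the middle stretch of the small intestine, and was hybridised to whole-genome Affymetrix mouse expression arrays. There were 2 arrays. One carried RNA pooled from 3 wild type mice and the other RNA pooled from 3 XBP1 knock-out mice, so each group had n = 1 and no difference has a replicate check or a p-value. XBP1 is a transcription factor of the unfolded protein response, and the comparison asks which jejunal transcripts differ without it. The labels give neither the age or strain of the mice nor the cells in which the gene was deleted, and a scraping mixes epithelium with the immune and stromal cells of the mucosa, so that fewer cells of a type and less RNA per cell cannot be told apart.

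Reg proteins are built around a C-type lectin fold. REG3 proteins are released into the lumen by enterocytes and Paneth cells, and REG3G and REG3B kill or bind bacteria and keep them away from the epithelial surface; their genes are induced by microbial signals through MyD88 and by interleukin 22 through STAT3. REG1 and REG2 are best known from the exocrine pancreas and from regenerating epithelium, and REG4 marks secretory cells of the gut. Resistin-like proteins share a cysteine-rich domain. RELM-beta, the product of Retnlb, is made by goblet cells, is induced by bacterial colonisation and by interleukin 4 and interleukin 13, and acts against bacteria and worms. RELM-alpha (Retnla) is a product of macrophages activated by the same cytokines, and resistin (Retn) of mouse fat cells.

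The Reg genes of the series other than Reg4 form a tight cluster on chromosome 6, in the order Reg3b, Reg3d, Reg3a, Reg2, Reg1 and Reg3g, with no other protein-coding gene between them in RefSeq. Retnlb, Retnla and Retnlg likewise follow one another on chromosome 16. RefSeq start regions, 250 bases before to 50 bases after each gene's start in mouse build GRCm38.p6, were matched by symbol for 9 of the 10 members, all but Retnlb. Those of 2 pairs are shown, the neighbours Reg1 and Reg2, and Reg3b and Reg3g from the ends of the cluster. In these arrays the ratios of Reg1 and Reg2 stood 1.26 log2 units apart and those of Reg3b and Reg3g 0.16 apart. Reg2 was close to background in both pools, so its ratio says little about its response. Capitals mark the TATA box letters TATAAA and the STAT-type letters TTCNNNGAA, searched on both strands. The regions are chr6:78425733-78426032 on the plus strand for Reg1, chr6:78404905-78405204 on the plus strand for Reg2, chr6:78370635-78370934 on the plus strand for Reg3b and chr6:78468825-78469124 on the minus strand for Reg3g.
Reg1: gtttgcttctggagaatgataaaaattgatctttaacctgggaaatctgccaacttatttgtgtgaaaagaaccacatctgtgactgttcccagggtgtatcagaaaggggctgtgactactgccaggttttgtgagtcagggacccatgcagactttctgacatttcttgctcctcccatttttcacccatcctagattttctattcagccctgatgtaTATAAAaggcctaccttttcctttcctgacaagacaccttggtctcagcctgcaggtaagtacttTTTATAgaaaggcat
Reg2: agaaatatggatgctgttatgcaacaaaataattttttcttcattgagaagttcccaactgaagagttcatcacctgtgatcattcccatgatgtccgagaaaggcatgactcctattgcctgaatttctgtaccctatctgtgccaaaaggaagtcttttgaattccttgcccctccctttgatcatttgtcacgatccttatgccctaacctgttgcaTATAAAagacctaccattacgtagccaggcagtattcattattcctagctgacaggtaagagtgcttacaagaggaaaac
Reg3b: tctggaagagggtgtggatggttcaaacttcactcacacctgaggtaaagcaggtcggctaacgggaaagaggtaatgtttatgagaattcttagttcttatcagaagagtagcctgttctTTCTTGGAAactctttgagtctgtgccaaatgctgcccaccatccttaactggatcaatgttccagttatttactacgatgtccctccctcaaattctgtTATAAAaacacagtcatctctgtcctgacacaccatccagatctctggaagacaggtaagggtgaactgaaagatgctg
Reg3g: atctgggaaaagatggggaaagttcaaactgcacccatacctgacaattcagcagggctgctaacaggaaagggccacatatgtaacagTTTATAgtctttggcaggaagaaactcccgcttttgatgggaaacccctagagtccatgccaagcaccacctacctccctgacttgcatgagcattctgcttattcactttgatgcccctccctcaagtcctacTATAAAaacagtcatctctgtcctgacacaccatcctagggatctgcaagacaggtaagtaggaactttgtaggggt

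A global alignment placed 68.1% of its columns as identical between the Reg3b and Reg3g start regions and 55.3% between those of Reg1 and Reg2. The remaining pairs among the 9 regions ran up to 52.4%, for Reg3a and Reg3g. Reg3g and Reg4, with the closest ratios of the measured members at 0.04 apart, had 44.4%. Any bearing of these regions on the ratios was not tested. TATA box letters began 30 bases before the start of both Reg1 and Reg2, 29 before that of Reg3b and 27 before that of Reg3g. They were present in 5 of the 9 member regions, the fifth being that of Retnla, and in 13.6% of all 32851 start regions of this length. The STAT-type letters occurred in the Reg3b region alone, 129 bases before the start, and in 8.30% of all regions. The letters GCCACGT, a site type of XBP1 and related factors, were in none of the 9 member regions and in 2.58% of all regions. This says only that this window lacks them. The shorter letters ACGT, with which they end, were in 4 of the 9, those of Reg2, Reg4, Retnlg and Retn. ACGT was in 30.9% of all regions.

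Deposited values were MAS5 signals on a linear scale. They were scaled here so that both arrays had the same 75th percentile, and values under a floor of 68.1 units, the median over both arrays, were set to that floor. A log2 ratio is the knock-out-labelled pool minus the wild-type pool. Of the 9 members with a probe set, 7 were above the floor in one pool or both and count as measured, 6 of them in both. Among the 12826 measured genes of the series, 2.25% reached 2-fold upward in the knock-out-labelled pool and 5.08% reached 2-fold downward. Among the 7 measured members, 2 reached 2-fold upward, Retnlb and Reg1, and 0 reached it downward. The member median was -0.13, beside -0.11 over all measured genes, with 3 ratios above 0 and 4 below. As a technical yardstick without variation between mice, probe sets that read the same gene had an SD of 0.37 between their ratios, taken over 4350 genes.

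Whole-series checks touch these values in 3 ways. Xbp1 itself had 4 probe sets with log2 ratios from -0.26 to 0.06, and since the deleted part of the gene is not stated, these check neither label; "knock-out-labelled" is used for that reason. The scaling matters: spikes added for the hybridisation, read by 18 probe sets, had a median log2 ratio of -0.69 in the deposited values, and 27 probe sets for labelling spikes had -0.23. The tissue label was examined with regional markers. Lct, the lactase of the proximal small intestine, had scaled signals of 36865 and 16523. The bile acid transporter gene Slc10a2 of the ileum and the colonic gene Car1 were below the floor in both pools. Fabp6, a bile acid binding protein of the ileum, was dim at 260 and 118. The other colonic markers were Slc26a3 at 6731 and 6291, Saa1 at 605 and 416, and Aqp8 at 67.9 and 92.0.

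**Figure D1:**
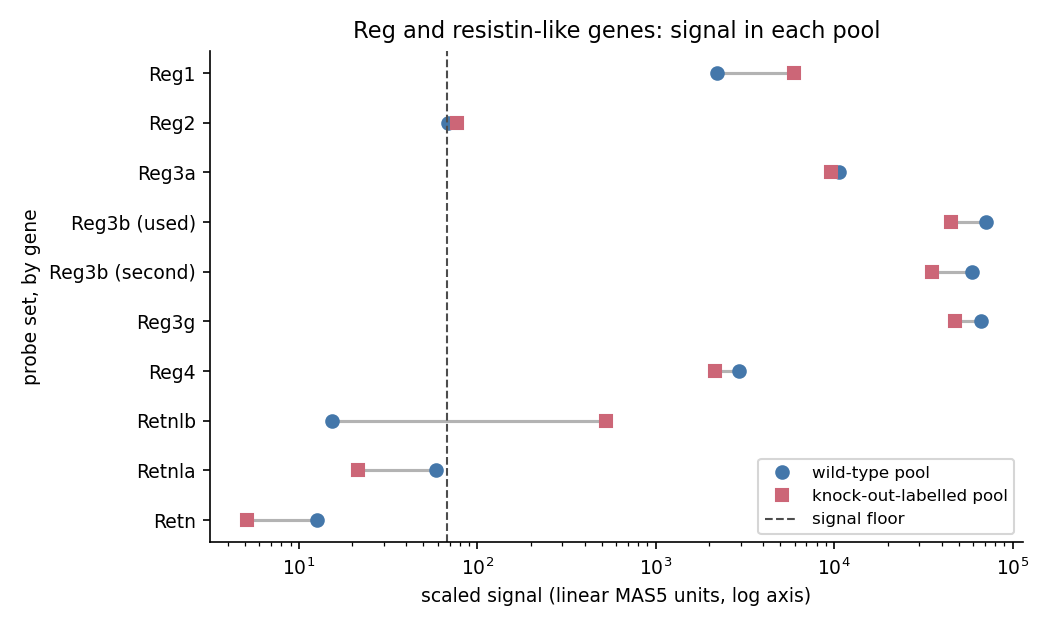
Scaled signal of the 10 probe sets of the 9 member genes (y axis) on a log axis (x axis, linear MAS5 units), circles for the wild-type pool and squares for the knock-out-labelled pool, 1 array each. The dashed line is the floor of 68.1; Retnlb is the only member that crosses it from 15.3 to 525, and Retnla and Retn lie below it in both pools.

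Retnlb showed the largest difference of the members. Its scaled signal was 15.3 in wild-type RNA, well under the floor, against 525 in knock-out-labelled RNA, 7.71 times the floor. The gene was thus at or under background in one array and plainly above it in the other. Because the wild-type value is only a bound, the log2 ratio is given as at least 2.95, or at least 7.71-fold higher. The deposited values were 14.8 and 543. Its place among the 45037 non-control probe sets, which no rescaling of an array can alter, went from the 19.9 percentile to the 79.7 percentile. The size of the bound follows the floor. With the floor at the 25th percentile, 19.6 units, it was at least 26.8-fold, and with the floor at the 75th percentile the log2 ratio was at least 0.64 and no longer past 2-fold. The result rests on 1 probe set. In the range of dim genes to which Retnlb belongs, with mean signals under 256, 3.02% of 5370 genes were at least 2-fold higher.

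RELM-beta is a goblet cell product, and goblet cell markers lay mostly on the other side of 0. All 8 goblet markers were measured. There were 7 with a negative ratio, and the list median was -0.64. Of the 8, 2 reached 2-fold downward and 0 upward, beside 5.08% and 2.25% of all measured genes. Zg16, Tff3 and Clca1 among them had mean signals of 32768 or more, a range in which 98.7% of genes had a ratio below 0 and the median was -0.54. The summed scaled signal of the 8 goblet markers was 277421 in wild-type RNA against 143840 in knock-out-labelled RNA. A median of this size was not particular to them. All 7 measured enterocyte markers were below 0, with a median of -0.70 and sums of 417856 and 256574. All had mean signals of 16384 or more, where at least 89.7% of genes were below 0. The median was -0.60 for B and plasma cell markers and -0.50 for T cell markers. Muc2, the main gel-forming mucin, was 10.1-fold lower. Fcgbp, whose product joins the mucus gel, was 2.31-fold lower. Spdef, a transcription factor of goblet cell maturation, had signals of 473 and 479. Retnlb is abundant in the colon, and colonic markers are of interest for that reason. Of 4 such markers, Car1 was below the floor in both pools and Aqp8 was at 67.9 and 92.0. Slc26a3 was at 6731 and 6291, and Saa1 at 605 and 416. None was at least 2-fold higher, and the summed signal was 7413 and 6835. The part of either cell source in the Retnlb difference was not tested.

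The cytokine route known to induce Retnlb was examined through a list of 26 genes of interleukin 4, interleukin 13 and STAT6 signalling and its targets. Of these, 24 had a probe set and 11 were measured. Of the 11, 0 reached 2-fold upward and 2 downward, beside 2.25% and 5.08% of all measured genes, and the list median was -0.21. Il4, Il13, Il5, Il9, Il25 and Tslp, the ligands of this response, were below the floor in both pools. Il33, an alarmin that starts it, had 2099 and 3154, a log2 ratio of 0.59. The receptor chain gene Il4ra had 1085 and 940, and Stat6, its transcription factor, 3644 and 3175. Ccl24, an eosinophil chemokine, was 3.16-fold lower, and Fcgbp, which stands on the list as a goblet cell target, 2.31-fold lower. Chil3 and Chil4, chitinase-like proteins that usually accompany RELM-alpha, were below the floor in both pools.

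Reg1 was the other member past 2-fold. Its scaled signal was 2193 in wild-type RNA against 5930 in knock-out-labelled RNA, both far above the floor. The log2 ratio was 1.43, or 2.70-fold higher. Of 10297 genes that exceeded the floor in both pools, 63 had a ratio as high, Reg1 included, which is 0.612%. Among the 2687 measured genes with mean signals between 1024 and 4096, where Reg1 lies, 1.23% were at least 2-fold higher. Under the scalings tried the ratio ran from 1.43 to 2.22, the latter with the hybridisation spikes made equal. Here too there was 1 probe set and no second reading.

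Reg2, the neighbour and closest relative of Reg1, gave a very different signal. It had 68.6 and 77.3, at the floor or just above it, and its log2 ratio of 0.17 lies within the probe set SD. REG1 and REG2 are made in large amounts by pancreatic acinar cells, so markers of that cell type were checked. Of 10 acinar markers 7 had a probe set, and Cpa1, Cpb1, Ctrb1 and Cela2a, which encode digestive enzymes of the pancreas, were below the floor in both pools. The other 3, Prss2, Cela1 and Cel, had ratios from -0.96 to -0.11. The summed acinar signal was 1061 in wild-type RNA against 745 in knock-out-labelled RNA, and the part of acinar cells in the Reg1 difference was not tested.

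**Figure D2:**
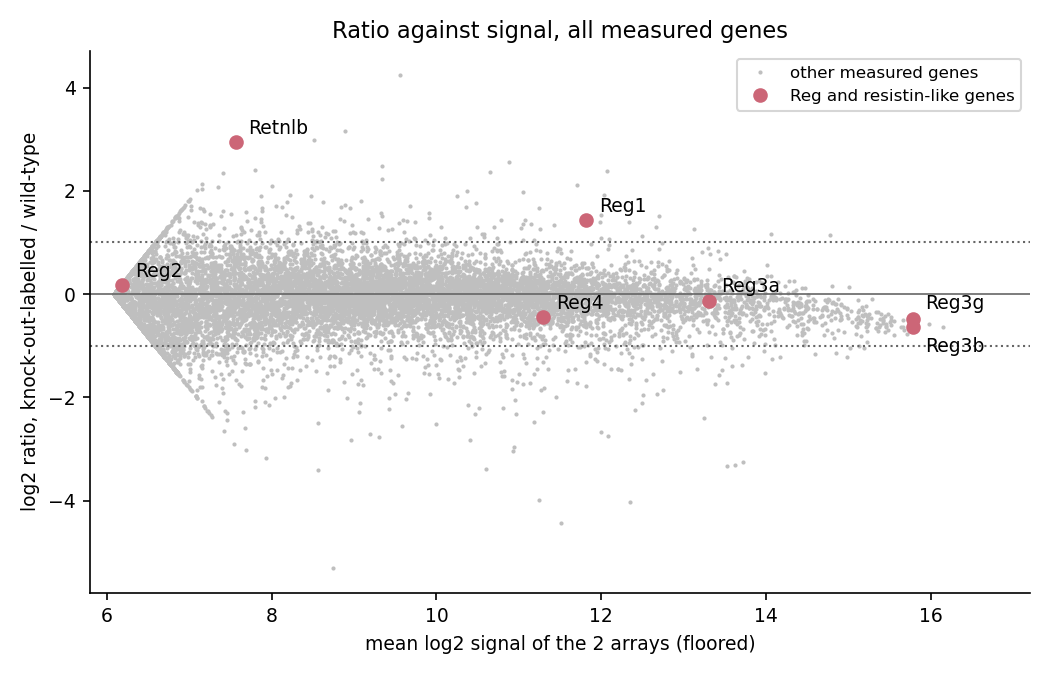
Log2 ratio of the knock-out-labelled over the wild-type pool (y axis) against the mean floored log2 signal of both arrays (x axis) for the 12826 measured genes in grey, with the 7 measured members in red. Retnlb and Reg1 lie above the dotted 2-fold line, while Reg3b and Reg3g lie at the bright end, where nearly all genes are below 0.

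The 3 REG3 genes among the members were all strongly expressed in both pools, and none passed 2-fold. Reg3g had scaled signals of 66799 in wild-type RNA against 47576 in knock-out-labelled RNA, a log2 ratio of -0.49. Reg3b had 70571 and 45114 on its brighter probe set, a log2 ratio of -0.65. The second Reg3b probe set had 59125 and 35551, a log2 ratio of -0.73. Both Reg3b readings were thus lower in the knock-out-labelled pool and differed from each other by 0.09. Reg3g differed from Reg3b by 0.16, which is less than the probe set SD. Reg3a had 10580 and 9660, a log2 ratio of -0.13.

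These REG3 ratios have to be read against genes of like brightness. Among the 75 measured genes with mean signals of 32768 or more, Reg3b and Reg3g among them, 98.7% had ratios below 0. Their median was -0.54 and the range from the 10th to the 90th percentile was -0.76 to -0.34, so both genes lay inside it. Counted from the top of each array, the Reg3b probe set stood at place 7 and then 6, and Reg3g at place 9 and then 4, of 45037. Place says how bright a probe set is and does not rank transcripts by abundance. The signs of all 3 ratios turned with the scaling. After quantile normalization, which equalises the bright end of both arrays, Reg3b was at 0.02, Reg3g at 0.16 and Reg3a at 0.06, and after loess on mean signal they were at -0.24, -0.09 and 0.05. The highest deposited signal on the array was 87533 for the wild-type pool and 60153 for the knock-out-labelled pool, and whether bright probe sets were near saturation was not tested. Reg3b and Reg3g share much of their sequence, so signal from one on the other's probe set is uncertain, and the brighter Reg3b probe set has a suffix that marks probes shared between transcripts.

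Reg4 had 2938 in wild-type RNA against 2152 in knock-out-labelled RNA, a log2 ratio of -0.45. This is a little more than the probe set SD and does not reach 2-fold. Enteroendocrine markers, a cell type in which Reg4 is expressed besides goblet cells, had a median of -0.30 over 6 genes, 5 of them below 0. The median of all measured genes was -0.11, and 52.4% to 67.3% of genes in the signal ranges of these markers were below 0. The summed signal of that list was 19925 and 13456. The part of these cells in the Reg4 value was not tested.

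Differences between members within the 2 arrays do not depend on a common factor applied to one array. By that measure Reg1 moved 2.08 log2 units above Reg3b, 1.92 above Reg3g, 1.57 above Reg3a and 1.88 above Reg4. These show unequal change, not which member was unchanged. A shift that varies with brightness does not cancel in such differences, and Reg3b and Reg3g are far brighter than Reg1. After quantile normalization Reg1 was at 1.53, Reg3b at 0.02 and Reg3g at 0.16, so the gaps were smaller. The spread among the members is therefore wide, with Retnlb and Reg1 apart from the 3 REG3 genes and Reg4, whose 4 ratios spanned -0.65 to -0.13.

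**Figure D3:**
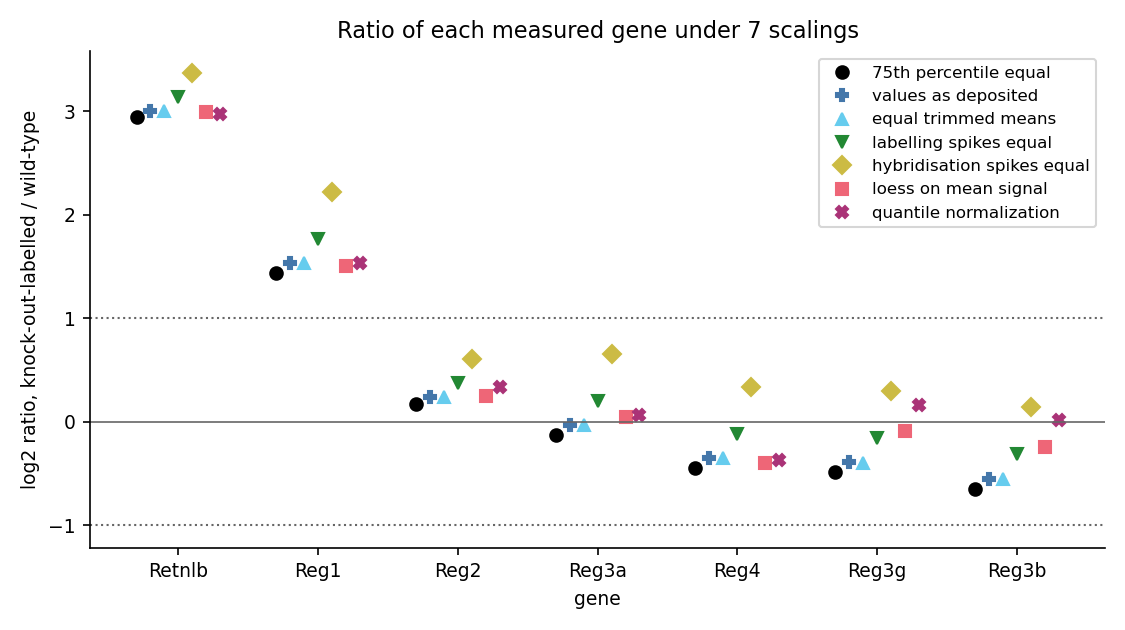
Log2 ratio (y axis) of the 7 measured members (x axis) under 7 scalings of the arrays, 1 symbol per scaling, with dotted lines at 2-fold. Retnlb, a lower bound, and Reg1 stay above the upper line in all 7, while Reg3a, Reg3b, Reg3g and Reg4 change sign when the hybridisation spikes are made equal.

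Retnla and Retn were not measurable in this tissue. Retnla had 58.9 in wild-type RNA against 21.6 in knock-out-labelled RNA, and Retn had 12.6 and 5.14, all under the floor, so no ratio is given. With the floor at 19.6 units the wild-type signal of Retnla was above it and its ratio was -1.45. Retnla therefore lay on the opposite side from its chromosomal neighbour Retnlb at that floor, on signals close to background. The cells that make these proteins were read by separate markers. Of 7 macrophage markers 6 were measured, with a median of -0.72, beside -0.11 for all measured genes, and summed signals of 4138 and 2524. Cd68, a lysosomal glycoprotein of macrophages, was 2.11-fold lower, and Mrc1, the mannose receptor of the alternatively activated type, had 115 and 168. Of 6 fat cell markers 4 had a probe set, and Adipoq and Lep, the defining hormones of fat cells, were below the floor in both pools. The lipid droplet gene Cidec was at 3539 and 3417, and the fatty acid carrier gene Fabp4 at 224 and 208. Retnlg is made by neutrophils and their precursors, and of 8 neutrophil markers S100a9, Camp, Elane and Cxcr2 were below the floor in both pools. The other 4 had a median of 0.42 with 3 above 0, all dim. Of all measured genes with mean signals under 256, 64.9% were below 0 and the median was -0.18. Ltf, lactoferrin, was at 25.2 and 147, at least 2.16-fold higher, and Ngp, a granule protein gene, at 76.5 and 121. S100a8 was at 20.1 and 76.8. Mpo lay below 0, at 128 and 17.4, at least 1.87-fold lower.

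Signalling upstream of Reg3b and Reg3g was taken from a list of 24 genes of the interleukin 22 and STAT3 route, with interleukin 6 and interleukin 17 signalling. Of these, 19 had a probe set, Il22 not among them, and 17 were measured. Il6 and Il23a were below the floor in both pools. Of the 17, 0 reached 2-fold in either direction on the probe set used, beside 2.25% upward and 5.08% downward of all measured genes. All 17 of these ratios were below 0, with a median of -0.48 beside -0.11 for all measured genes. At the mean signals of the list, all under 16384, 52.4% to 67.3% of measured genes were below 0, depending on the signal range. Il17a and Osmr were dim bounds, with the knock-out-labelled value under the floor. With the median over probe sets the list median was -0.29, beside -0.04 for all measured genes. Equal hybridisation spikes put the list median at 0.30, beside 0.62 for all measured genes. Il22ra1, the epithelial chain of the interleukin 22 receptor, had 1746 and 1247, a log2 ratio of -0.49. Stat3 had 4417 and 3782, a log2 ratio of -0.22, and Socs3, the feedback inhibitor that STAT3 induces, had 3669 and 2524, a log2 ratio of -0.54. Probe sets of the same genes that were not used did not all share that sign or size. Other Socs3 probe sets gave -0.09 and 0.30, and 1 each for Jak1, Stat3 and Pim1 gave 0.37, 0.35 and 0.06. A second probe set of Ahr, the aryl hydrocarbon receptor, was at 215 and 44.7, at least 3.16-fold lower. The lowest member was Bcl3, a nuclear NF-kB cofactor, at -0.87, and the highest Jak1, a kinase of these receptors, at -0.03.

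Genes of Toll-like receptor signalling, the other inducer of the REG3 genes, were taken from a list of 24. Of these 16 were measured, 1 reached 2-fold upward and 0 downward, beside 2.25% and 5.08% of all measured genes. There were 10 ratios below 0 and the median was -0.21, which became 0.10 with equal labelling spikes and 0.54 with equal hybridisation spikes. The median of all measured genes was -0.11, 0.21 and 0.62 in these 3 scalings. In the main scaling 52.4% to 67.3% of measured genes in the signal ranges of this list were below 0. Myd88, the shared adaptor, had 1386 and 1490, a log2 ratio of 0.10. Tirap, a bridging adaptor, was 2.06-fold higher on its brighter probe set, and a second probe set gave -0.64. Tlr2, Tlr4, Tlr5 and Tlr9 were below the floor in both pools. The lowest measured member was Nod1, a cytosolic sensor of peptidoglycan, at -0.94.

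**Figure D4:**
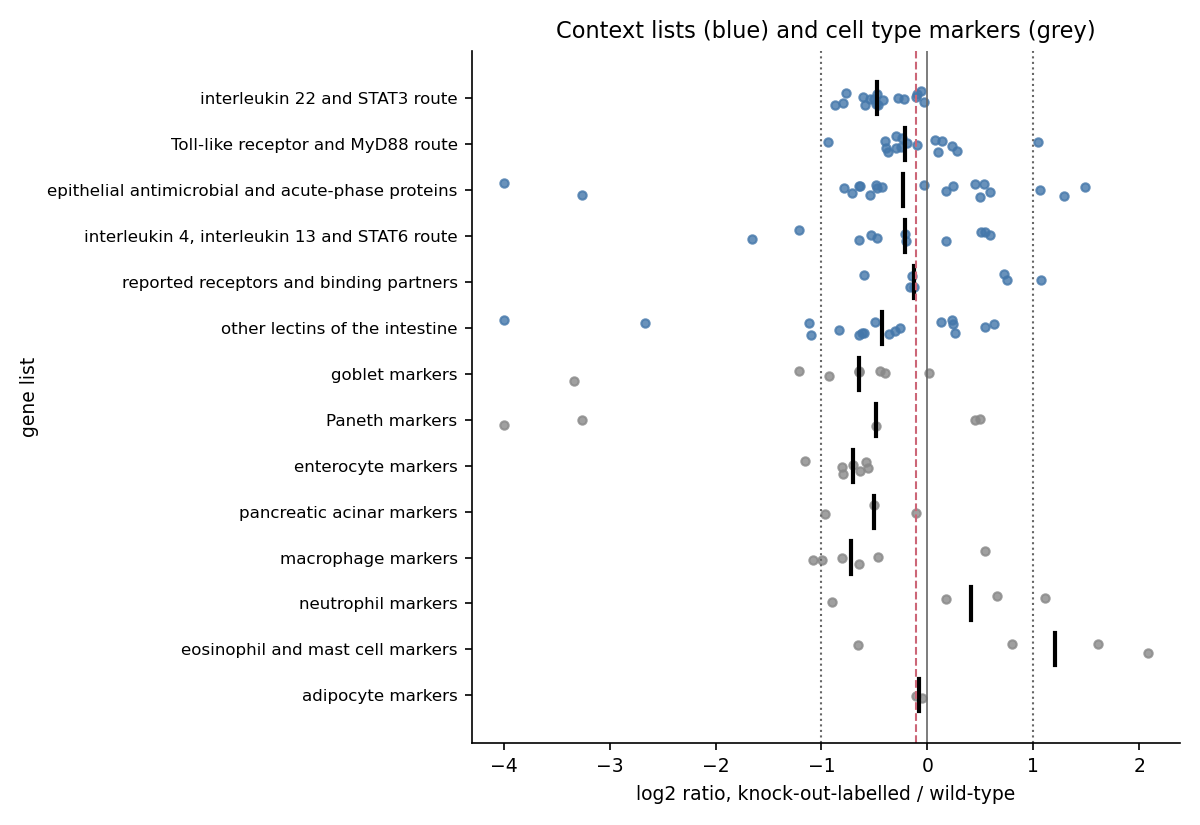
Log2 ratio of the knock-out-labelled over the wild-type pool (x axis) for the measured genes of 6 context lists (blue) and 8 cell type marker lists (grey), 1 point per gene, black bars for list medians, a dashed line at the median of all measured genes and dotted lines at 2-fold. All 17 measured genes of the interleukin 22 and STAT3 list lie below 0 in this scaling, as do 52.4% to 67.3% of all measured genes in their signal ranges. Equal hybridisation spikes turn their median to 0.30 and that of all measured genes to 0.62. The antimicrobial list spreads to both sides of the 2-fold lines.

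Other antimicrobial and acute-phase proteins of the epithelium split in both directions. Of 28 genes on the list 20 were measured, and the median was -0.23. Of the 20, 3 reached 2-fold upward and 2 downward, beside 2.25% and 5.08% of all measured genes. Lcn2, the iron-scavenging lipocalin, was at least 2.81-fold higher with 67.8 and 191, Fut2, the fucosyltransferase of the gut surface, was 2.45-fold higher with 1061 and 2599, and Saa3, a serum amyloid, was 2.09-fold higher with 74.7 and 156. A second Fut2 probe set was at 58.3 and 269, at least 3.95-fold higher. The lower pair were the Paneth cell genes Itln1 and Lyz1, 15.9-fold and 9.59-fold lower. Of the other 3 measured Paneth cell markers, Ang4, a bactericidal ribonuclease, had 11608 and 15847, and Mmp7, the protease that activates defensins, 875 and 1235. Pla2g2a, a phospholipase that attacks bacterial membranes, had 2483 and 1777. Saa1, a serum amyloid that is often induced together with the REG3 genes, had 605 and 416, a log2 ratio of -0.54.

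Among 18 measured lectins of the intestine that are not members, the median was -0.43. Of these, 0 reached 2-fold upward and 4 downward, beside 2.25% and 5.08% of all measured genes. Besides Itln1, an intelectin, these were Mbl2, a mannose-binding lectin, at least 6.33-fold lower, and the myeloid lectin genes Clec4n and Clec7a, 2.16-fold and 2.15-fold lower. Zg16, a goblet cell lectin that binds bacteria, had 64958 and 41505, a ratio of -0.65 that equals that of Reg3b. Lgals4, a galectin of enterocytes at the same bright end, had 57844 and 38197, a log2 ratio of -0.60. The list also holds Reg3d, the one gene of the chromosome 6 cluster that is not a member, with 79.2 and 123, a log2 ratio of 0.63 close to the floor.

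Reported receptors and partners of these proteins were few. Of 8 genes 7 were measured, and the median was -0.13. On the probe sets used, 1 reached 2-fold upward and 0 downward, beside 2.25% and 5.08% of all measured genes. Egfr had 515 and 472 on the probe set used. Its other measured probe sets ran from -1.73 to 0.40, the lowest at 463 and 139, 3.32-fold lower. Cap1, a cytoskeletal protein described as a receptor of human resistin, had 2813 and 5937, 2.11-fold higher, and its second probe set had 1269 and 3491, 2.75-fold higher. Extl3, a glycosyltransferase described as a receptor of REG proteins, had 286 and 255, a log2 ratio of -0.16. On the probe sets used, this is the lowest ratio of the list after that of the dim kinase gene Btk. Tlr4, described as a receptor of resistin, was below the floor in both pools.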

How the data were processed

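Signals of 45101 probe sets on 2 arrays, 1 per group, were analysed. The authors deposited linear intensity values, which are MAS5 signals per the submitters' processing notes. The software version was not given in the sources used here, nor were detection calls. Both deposited columns had a trimmed mean of 500, with 2 percent cut from either end. No array file or second array per group was used, so the number of arrays limits the precision.

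Probe sets were named from the platform annotation (34945 with 1 symbol, 932 with several, which were left out, and 9160 with none), and symbols were updated through RefSeq for GRCm38.p6, which held 99.4% of the gene numbers. Scale factors were 1.034 and 0.967. Each gene was represented by the probe set that was brightest on average, in floored log2 units. Ratios with 1 array under the floor are bounds. Calculations used Python 3.11.15, pandas 2.3.3, statsmodels 0.14.6 and Biopython 1.88, and were tested on simulated data. Start regions were aligned with match 2, mismatch -1, gap opening -5 and gap extension -0.5. Alternatives covered scaling, floor, probe set choice and fold threshold. The members, the context and marker lists, and the naming rule (every member, and up to 3 genes past 2-fold at each end of a context list, otherwise its highest and lowest member) were chosen with earlier results of these data known. Genes named outside that rule, such as receptors, ligands and markers, were chosen for their role after values were seen.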

Additional observations from a re-analysis of the deposited data

How the results depend on the processing

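The number of members at least 2-fold higher was 2 in every setting except the floor at the 75th percentile and the 3-fold threshold, where it was 1. It lost Retnlb in the former case, because a floor of 337 lies close under its signal, and Reg1 in the latter. The number at least 2-fold lower was 0, apart from 1 with the floor at the 25th percentile (Retnla) and 1 at a 1.5-fold threshold (Reg3b). Over all genes, higher and lower counts were 2641 and 126 with the hybridisation spikes equal, 718 and 318 with the labelling spikes equal, 1139 and 2531 with the floor at the 25th percentile, 85 and 219 with it at the 75th, 185 and 418 with the median over probe sets, 1005 and 2093 at 1.5-fold, and 55 and 135 at 3-fold, against 288 and 652. Other scalings moved the split: 382 and 530 for the values as deposited, 378 and 531 for equal trimmed means, 360 and 509 for quantile normalization and 338 and 550 for loess. The median of all measured genes was 0.62 and 0.21 with the hybridisation and labelling spikes equal.

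Of the member log2 ratios under alternatives, 9 changed sign, by moves of any size. Of those that kept their sign, 53 moved by less than the probe set SD of 0.37 and 7 by more. With the hybridisation spikes equal Reg3a was 0.65, Reg3b 0.14, Reg3g 0.29 and Reg4 0.33. Reg3a was 0.20 with the labelling spikes equal, 0.061 after quantile normalization and 0.048 after loess, and quantile normalization gave 0.018 for Reg3b and 0.16 for Reg3g. By place within the array, the change was 0.082 percentage points for Reg3a, 0.0022 for Reg3b and 0.011 for Reg3g, all upward, but -0.051 for the second Reg3b probe set. List medians changed sign 13 times. With the hybridisation spikes equal they were 0.30 for interleukin 22, 0.54 for Toll-like receptors, 0.31 for antimicrobial proteins, 0.21 for interleukin 4, 0.65 for receptors and 0.32 for lectins. With the labelling spikes equal they were 0.097 for Toll-like receptors, 0.13 for interleukin 4 and 0.21 for receptors. Quantile normalization gave 0.067 for antimicrobial proteins and 0.0081 for lectins, the floor at the 25th percentile gave 0.13 for antimicrobial proteins, and that at the 75th 0.48 for receptors. The cause of these shifts was not tested beyond the scaling itself. Signals near the floor limit Reg2, Retnla, Retn and the wild-type value of Retnlb. No paired analysis was possible because each group has 1 array.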

Other observations

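Of 4 measured eosinophil and mast cell markers, 2 reached 2-fold upward and 0 downward, beside 2.25% and 5.08% of all measured genes. The 2 were Mcpt1 and Mcpt2, which encode mucosal mast cell proteases. Mcpt1 had scaled signals of 79.2 in wild-type RNA, close to the floor, against 335 in knock-out-labelled RNA, 4.23-fold higher. Mcpt2 had 135 and 413, 3.05-fold higher. Siglecf, a lectin of eosinophils and tuft cells, had 161 and 280. Cpa3, a protease of all mast cells, had 107 and 56.3, the latter under the floor, and the eosinophil granule genes Prg2 and Epx were below the floor in both pools. Tuft cell markers, of which 4 of 5 were measured, all had ratios above 0, in part as bounds close to the floor. Their median was 0.60, beside -0.11 for all measured genes. Of measured genes, 64.9% were below 0 at mean signals under 256 and 52.4% at 256 to 1024. Pou2f3 was at 42.4 and 70.7 and Gfi1b at 4.67 and 102, and another Dclk1 probe set gave at most -0.82. Il25, the tuft cell cytokine of type 2 responses, was below the floor in both pools. These genes come from marker lists, and Mcpt1 and Mcpt2 were singled out after their values were seen. Any link between them and Retnlb was not tested.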
